A study of Rattus norvegicus with 8 samples.

Results

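Reactive astrocytes are glial cells that answer injury, infection or inflammation by changing which genes they use. The 10 genes described here are known to rise in that response in rodent brain, and they were measured in cultured rat hippocampal neurons carrying a hairpin RNA against Sirt6. They are Serpina3n, Timp1, Lcn2, Cp, Steap4, Osmr, Cd44, Hspb1, S100a10 and Gbp2. They were taken as every non-control probe whose gene name on the array was one of these 10, which gave 14 probes, and they are 10 of the 22590 genes tested. The 10 were chosen by their levels on these same arrays, Sirt6 shRNA against scrambled shRNA, so their differences between the groups are given as a description: no p-value is given for them, and how many passed the threshold is printed only beside the share of all genes that did.

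Serpina3n is a secreted serine protease inhibitor and Lcn2 (lipocalin 2) a secreted carrier of iron-binding siderophores, and both are widely used as markers of reactive astrocytes. Much of the response runs through cytokines of the interleukin-6 and oncostatin M family, whose receptors share the chain gp130 (Il6st) and signal through JAK kinases to STAT3. Other arms pass through NF-kB and through interferons, and small heat shock proteins such as Hspb1 are under the heat shock factor HSF1. Sirt6 is a nuclear NAD-dependent deacylase that removes acetyl groups from histone H3 and is known for restraining NF-kB target genes.

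The neurons came from the hippocampus of Wistar rats on postnatal day 0 to 1 and were grown in Neurobasal-A with B27 and Glutamax. On day 3 in vitro all cultures, controls included, were given lentivirus (multiplicity of infection 6), and they were harvested after 7 more days, on day 10 in vitro. In 4 samples the virus carried a scrambled shRNA and in 4 samples an shRNA against rat SIRT6, a single hairpin in each arm as far as the labels say. The stated aim was to learn what SIRT6 does in neuronal morphogenesis. Each sample was hybridised to a 1-colour Agilent array, and a level here is the log2 of the processed spot signal minus that array's 75th percentile, so that 0 is the 75th percentile of the array. Levels can be compared between arrays for 1 gene but not between genes. Nothing in the labels tells if samples within a group were separate animals or separate cultures, so every error and p-value measures only the spread between these samples. All 8 arrays lay on 1 slide, with the scrambled samples in row 1 and the Sirt6 samples in row 2, so row and group cannot be told apart. In both rows a sample's replicate number is also its column on the slide.

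Between 60.4% and 65.3% of probes were well above background on each array, and no spot was saturated. Array pairs within a group correlated at 0.9954 to 0.9975 across genes, and pairs between groups at 0.9912 to 0.9935. Sirt6 itself read 2.10, 2.04, 2.02 and 2.06 in the scrambled samples against 0.55, 0.58, 0.50 and 0.46 with its hairpin, so it was at 34.6% of the scrambled level (log2 fold change -1.53 ± 0.040 SE, adjusted p = 5.55e-06 by limma). All 14 neuron markers checked, Map2 and Rbfox3 among them, passed the filter on dim probes, but so did all 16 astrocyte markers, Gfap and Aqp4 among them: the cultures held astrocyte RNA as well as neuronal RNA. In RNA from a whole culture, fewer cells of a type and less RNA per cell cannot be told apart.

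The stretch just upstream of the start was read for the 9 of the 10 genes that have one in RefSeq (build GRCr8), S100a10 having none there. It covers the 250 bases before the start, on the gene's own strand. Those shown are Serpina3n, which had the widest difference between the groups, Lcn2, the other common marker of the response, and Hspb1, which went the opposite way. Capitals mark matches to the motifs searched on both strands, namely TTCNNNGAA for STAT factors, GAANNTTC for heat shock factors, TGANTCA for AP-1, GAAA repeated after 2 bases for interferon regulatory factors, and the NF-kB consensus. None of these matches overlapped another.
Serpina3n: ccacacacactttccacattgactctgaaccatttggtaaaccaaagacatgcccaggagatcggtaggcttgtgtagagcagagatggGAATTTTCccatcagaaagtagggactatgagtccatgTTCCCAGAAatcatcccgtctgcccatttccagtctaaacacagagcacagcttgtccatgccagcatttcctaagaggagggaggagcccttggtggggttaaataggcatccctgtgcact
Lcn2: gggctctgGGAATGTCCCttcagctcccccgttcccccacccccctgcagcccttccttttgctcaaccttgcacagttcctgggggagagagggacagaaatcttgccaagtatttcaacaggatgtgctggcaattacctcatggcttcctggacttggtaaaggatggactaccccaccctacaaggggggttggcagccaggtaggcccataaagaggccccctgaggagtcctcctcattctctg
Hspb1: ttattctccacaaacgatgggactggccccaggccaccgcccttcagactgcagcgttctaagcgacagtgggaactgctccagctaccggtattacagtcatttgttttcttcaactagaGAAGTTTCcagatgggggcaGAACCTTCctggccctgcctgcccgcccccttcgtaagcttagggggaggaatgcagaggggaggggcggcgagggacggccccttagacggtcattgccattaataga
The Serpina3n stretch lies at chr6:129088142-129088391 on the plus strand, that of Lcn2 at chr3:36081781-36082030 on the minus strand and that of Hspb1 at chr12:26432302-26432551 on the minus strand. The Serpina3n stretch held a heat shock factor match 161 bases and a STAT match 123 bases before the start. That of Lcn2 held an NF-kB match at 242 bases, and that of Hspb1 held heat shock factor matches at 129 and 109 bases.

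Of the other stretches, that of Steap4 matched the NF-kB consensus and the STAT motif, that of Gbp2 matched the interferon motif and AP-1, and that of Osmr matched AP-1. Those of Cp, Cd44 and Timp1 matched none of the 5 motifs. Among all 33469 RefSeq promoters, 7.67% had the STAT motif in this window, 7.23% the heat shock factor motif, 6.34% AP-1, 6.33% NF-kB and 3.41% the interferon motif. The STAT, heat shock factor, AP-1 and NF-kB motifs were each in 2 of the 9 stretches, and the interferon motif in 1. A match is a run of letters and not a shown binding site.

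All 10 genes passed the filter (a probe clearly brighter than background in 4 or more of the 8 samples), 9 of them on all 8 arrays. At an adjusted p under 0.05, which is what called means below, 5 were lower with the Sirt6 hairpin (Serpina3n, Timp1, Lcn2, Cp and Cd44), 2 were higher (Hspb1 and S100a10) and 3 were not called (Steap4, Osmr and Gbp2). Over all genes tested 30.4% were called, 14.8% lower and 15.6% higher. The 2 groups did not overlap in those 7 genes, as in 33.4% of all genes. Because this contrast is the one that chose the genes, nothing is read from these counts. The median log2 fold change of the 10 was -0.19, beside 0.021 over all genes. Of all called genes 51.3% were higher, a share that became 35.2% when arrays were centred on their medians and 64.9% when they were scaled on the E1A spike-in RNAs.

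**Figure D1:**
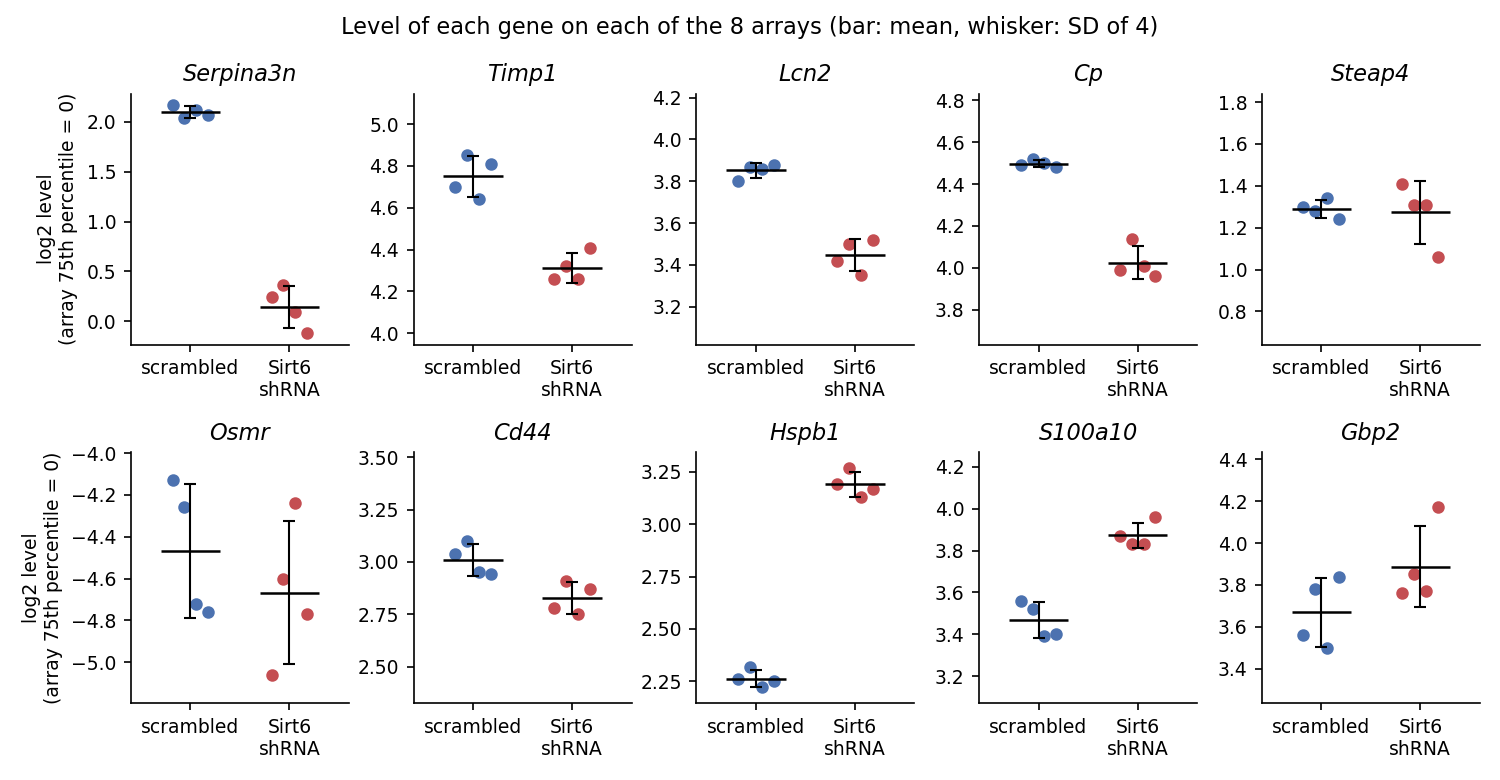
Level of each of the 10 genes on every array, as log2 signal with the array's 75th percentile at 0, for 4 scrambled shRNA samples (blue) and 4 Sirt6 shRNA samples (red). Bars are means and whiskers SDs of 4, each panel has its own vertical range, and the groups stand apart in every panel but those of Steap4, Osmr and Gbp2.

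Among the secreted proteins, Serpina3n had the widest gap. Its log2 level was 2.17, 2.04, 2.12 and 2.07 in the scrambled samples and 0.24, 0.36, 0.09 and -0.12 with the Sirt6 hairpin. Every Sirt6 sample lay far below every scrambled sample, and the Sirt6 samples were also more scattered among themselves (SD 0.21 against 0.055, n = 4 each). The log2 fold change was -1.96 ± 0.097 SE, which puts Serpina3n at 25.8% of the scrambled level, a 3.88-fold difference. By size it was number 10 from the bottom of the 22590 genes, while Sirt6, the targeted gene, was number 30. On the linear scale the processed signal averaged 1381 ± 55.8 against 368 ± 52.0 (SD, n = 4). Its probe, at chr6:128469197-128469256 in rn4, was printed 2 times per array, and its spots differed from each other by an SD of at most 0.089 in log2.

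Timp1, the secreted inhibitor of matrix metalloproteinases, read 4.70, 4.85, 4.64 and 4.81 in the scrambled samples and 4.26, 4.32, 4.26 and 4.41 with the hairpin. Again the groups did not overlap, but the step was much smaller than that of Serpina3n. It came to -0.44 ± 0.060 in log2 fold change, or 73.8% of the scrambled level.

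Lcn2 read 3.80, 3.87, 3.86 and 3.88 against 3.42, 3.50, 3.35 and 3.52. The 4 scrambled samples were almost level (SD 0.034) and all 4 Sirt6 samples sat below them, at 75.3% of their level (log2 fold change -0.41 ± 0.048).

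Cp encodes ceruloplasmin, a copper-carrying ferroxidase that astrocytes make both as a secreted and as a membrane-anchored form. Its probe read 4.49, 4.52, 4.50 and 4.48 against 3.99, 4.14, 4.01 and 3.96. The scrambled samples were almost level (SD 0.015) and the Sirt6 samples were all lower, at 72% of the scrambled level (log2 fold change -0.47 ± 0.046). The other Cp probe, which lies elsewhere in the transcript, gave -0.39 ± 0.046.

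Timp1, Lcn2 and Cp thus lay between 72% and 75.3% of their scrambled levels, and Serpina3n at 25.8%. No probe of Serpina3n other than the one used was on the array, so its larger step rests on 1 probe sequence. Its relatives of the clade A serpin cluster gave no comparison: of 9 listed, among them Serpina3c and Serpina3m, only Serpina4 passed the filter, and it was not called (log2 fold change -0.08 ± 0.090, adjusted p = 0.526 by limma). Whether the Serpina3n probe also binds transcripts of those relatives was not tested.

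Steap4 is a membrane metalloreductase that reduces iron and copper for uptake. It read 1.30, 1.28, 1.34 and 1.24 in the scrambled samples and 1.41, 1.31, 1.31 and 1.06 with the hairpin. The groups overlapped, the highest and the lowest sample of all 8 both being Sirt6 samples, and the log2 fold change of -0.02 ± 0.074 changed sign between alternatives of the processing.

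Osmr, the oncostatin M receptor chain that pairs with gp130, was close to the limit of what the array could read. It gave -4.13, -4.26, -4.72 and -4.76 in the scrambled samples and -5.06, -4.60, -4.24 and -4.77 with the hairpin. These values are interleaved, and the probe was well above background on 7 of the 8 arrays, with a mean signal of 14.8 ± 2.96 against 13.4 ± 3.50. The log2 fold change was -0.20 ± 0.21, and the other Osmr probe stayed at background throughout. At this signal a difference of the size seen in Timp1 or Lcn2 would be about 2 standard errors.

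Cd44, the cell surface receptor for hyaluronan, read 3.04, 3.10, 2.95 and 2.94 against 2.78, 2.91, 2.75 and 2.87. The lowest scrambled value was only just above the highest Sirt6 value, and the log2 fold change was -0.18 ± 0.055 (88.3% of the scrambled level). Its 3 probes disagreed in size: the one used gave -0.18, and the others gave -0.07 ± 0.041 and -0.44 ± 0.051. Cd44 is one of the 5 counted as lower above, and it no longer passed that threshold when any 1 of the arrays of scrambled replicates 1 to 3 or of Sirt6 replicates 1, 3 and 4 was left out (log2 fold changes from -0.15 to -0.20), on the spike-in scale (-0.10 ± 0.084) or without the filter on dim probes.

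**Figure D2:**
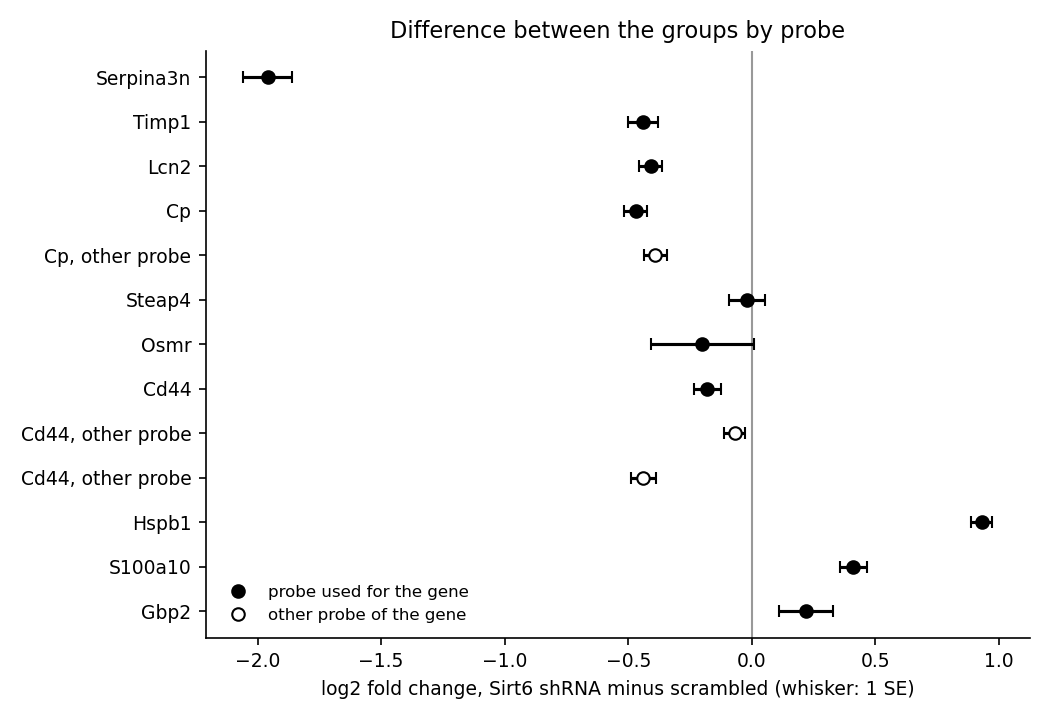
Log2 fold change (Sirt6 shRNA minus scrambled, whiskers 1 SE, 4 samples a group) for the 13 probes that passed the filter, filled where the probe stands for its gene and open for further probes of Cp and Cd44. The probes of Cp lie close together at -0.47 and -0.39, those of Cd44 spread from -0.07 to -0.44, and Serpina3n lies alone at -1.96.

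Inside the cell, Hspb1 went the other way. Hspb1 is the small heat shock protein HSP27, a chaperone that also binds actin filaments. It read 2.26, 2.32, 2.22 and 2.25 in the scrambled samples and 3.19, 3.27, 3.13 and 3.17 with the Sirt6 hairpin. Each group was tight (SD 0.043 and 0.057) and the gap between them was wide, giving a log2 fold change of 0.93 ± 0.042, or 1.90-fold. It was number 130 from the top of all genes by size.

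S100a10, known as p11, forms a complex with annexin A2 at the plasma membrane. It read 3.56, 3.52, 3.39 and 3.40 against 3.87, 3.83, 3.83 and 3.96. All Sirt6 samples were above all scrambled samples, by 0.41 ± 0.055 in log2 fold change or 1.33-fold, about as large a step as that of Lcn2 in the opposite direction.

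Gbp2, an interferon-induced guanylate-binding GTPase, read 3.56, 3.78, 3.50 and 3.84 against 3.76, 3.85, 3.77 and 4.17. The groups overlapped, and in both of them replicates 2 and 4, which share slide columns 2 and 4, were the highest. The log2 fold change was 0.22 ± 0.11, with SDs of 0.17 and 0.19 within the groups. Within the 4 slide columns the Sirt6 sample was above the scrambled one by 0.20, 0.06, 0.28 and 0.33.

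The probes of Timp1, Cd44, Hspb1 and S100a10 were each printed 10 times per array, and the SD among those spots was at most 0.071 in log2 on any array. For Hspb1 and Timp1 the probe's ends lie further apart in the genome than its 60 bases, so that it reads across a splice junction. The Hspb1 probe maps within chr12:21911494-21911664 and that of Timp1 within chrX:12542700-12543703, both in rn4.
Hspb1 probe: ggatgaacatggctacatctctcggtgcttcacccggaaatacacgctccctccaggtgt
Timp1 probe: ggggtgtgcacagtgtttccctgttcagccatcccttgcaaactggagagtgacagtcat
The probes used for the other genes mapped to stretches of 60 bases: Lcn2 at chr3:11511592-11511651, Cp at chr2:105148774-105148833, Steap4 at chr4:22688668-22688727, Osmr at chr2:56080710-56080769, Cd44 at chr3:88023005-88023064, S100a10 at chr2:186654233-186654292 and Gbp2 at chr2:240541001-240541060. The further Cp probe also spans more than its own length, 417 bases at chr2:105129736-105130152.

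By the correlation of levels over the 8 arrays, the genes most like Serpina3n were Epcip (r = 0.999), Slc27a1 (0.9985), Gpnmb (0.9984), Mmd2 (0.9981) and Mxra8 (0.9981), out of 22588 compared. Their log2 fold changes were -1.06, -0.39, -1.30, -0.77 and -1.1. These correlations are a description over 8 points in 2 groups, and any gene that is steady within the groups and lower with the hairpin comes near to 1.

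Outside the 10, the lists held 22 other genes of the reactive astrocyte response that were bright enough to test. Of these, 12 fell, 4 rose and 6 were not called, with a median log2 fold change of -0.18. The share called was 72.7%, beside 30.4% of all genes (14.8% lower and 15.6% higher). Like the 10, the lists were chosen with earlier results of these data known, so the counts are a description. On the E1A spike-in scale the counts were 6 fallen and 2 risen. The 16 astrocyte markers, counted further below, were also mostly lower. Of the 22, 5 are genes raised in reactive astrocytes of every kind, and 4 of these fell. The 10 genes described above, Hspb1 with its rise among them, are not counted here. Those fallen were Aspg, an asparaginase (-0.97 ± 0.10, adjusted p = 0.000437), the chemokine Cxcl10 (-0.76 ± 0.21, adjusted p = 0.0297), the intermediate filament Gfap (-0.71 ± 0.069, adjusted p = 0.000288) and the sphingosine phosphate receptor S1pr3 (-0.55 ± 0.056, adjusted p = 0.000318). The call of Cxcl10 was lost without scrambled replicate 1, 2 or 4, without Sirt6 replicate 1 or 2, on the spike-in scale and without the filter on dim probes, its log2 fold change running from -0.93 to -0.63 over all omissions of 1 array.

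In the set named A1, which was first described after inflammatory stimulation, 4 of 8 genes tested fell and 1 rose. Called were 62.5% of this set, beside 30.4% of all genes. The complement component C3 (-0.79 ± 0.077, adjusted p = 0.000275), the C1 inhibitor Serping1 (-0.33 ± 0.052, adjusted p = 0.00271) and Ggta1 (-0.20 ± 0.047, adjusted p = 0.0145) fell, while Srgn, a proteoglycan core protein, rose (0.75 ± 0.092, adjusted p = 0.000816). With the mean of its probes Ggta1 gave -0.46 and was not called. The other fallen gene, Amigo2 (-0.17 ± 0.053), kept its call in 8 of the 21 alternatives. Srgn was dim, and its fold change was 0.25 after normexp background correction. In the set named A2, first described after ischaemia, 4 of 9 fell and 3 rose (77.8% called). The pentraxin Ptx3 (-0.82 ± 0.066, adjusted p = 0.00012), the gp130 cytokine Clcf1 (-0.61 ± 0.068, adjusted p = 0.000529) and the sphingosine kinase Sphk1 (-0.44 ± 0.092, adjusted p = 0.00956) fell. Sphk1 stood at -0.16 after normexp background correction and was not called on the spike-in scale. Ptgs2, the inducible cyclooxygenase, also fell (-0.33 ± 0.055, adjusted p = 0.00348), and the risen genes were Emp1 (0.34 ± 0.098), Tm4sf1 (0.34 ± 0.046) and the lipopolysaccharide co-receptor Cd14 (0.21 ± 0.055). Genes beyond the 4 of largest change, here and in the lists below, are named after their values were seen, to complete a count. The calls of Emp1 and Cd14 held in 11 and 17 of the 21 alternatives. On the spike-in scale the genes fallen were 1 in the A1 set and 2 in the A2 set.

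**Figure D3:**
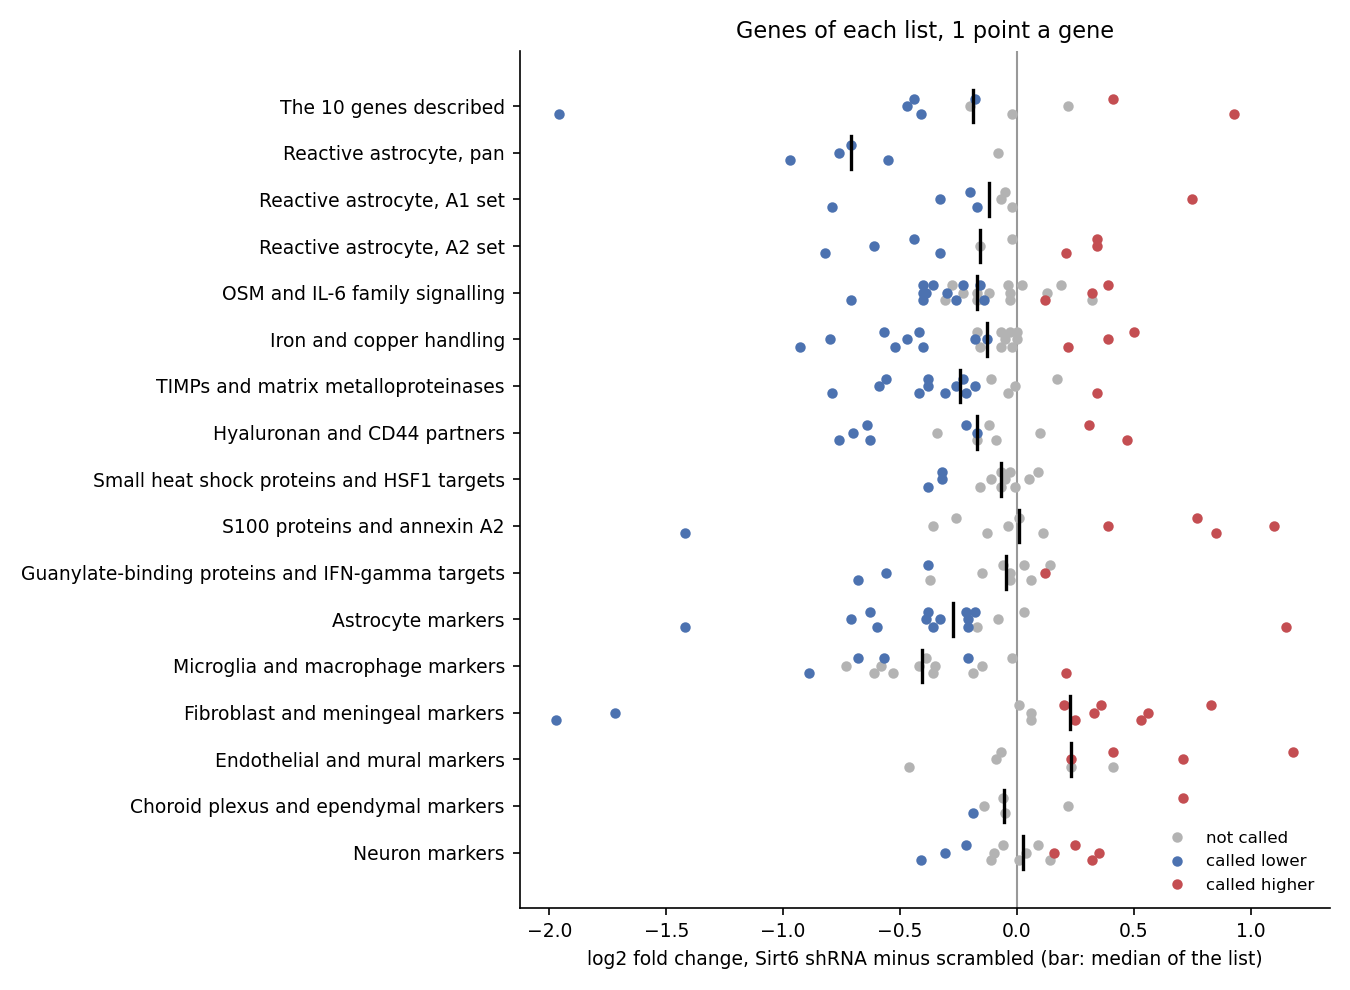
Log2 fold change (Sirt6 shRNA minus scrambled) of every tested gene of the 10 described and of each gene list, 1 point a gene, coloured by whether it passed an adjusted p of 0.05, with the list's median as a bar. The 5 genes raised in reactive astrocytes of every kind that are not among the 10 have their median at -0.71. S100 proteins and annexin A2 have theirs at 0.01 with points from -1.42 to 1.1.

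Around Osmr, the genes of oncostatin M and interleukin-6 signalling gave 11 of 27 tested that fell and 3 that rose. Their median was -0.17, and 51.9% were called, beside 30.4% of all genes. The shared receptor chain Il6st fell to between 2.45 and 2.57 from between 2.88 and 2.96 (log2 fold change -0.40 ± 0.039, adjusted p = 0.00027). Junb, an immediate early transcription factor that these cytokines induce, fell by 0.71 on the log2 scale (SE 0.039, adjusted p = 3.03e-05). The ligands Cntf and Ctf1 fell too (both -0.40, adjusted p = 0.00427 and 0.00576), with Ctf1 at -0.20 after normexp background correction. Stat3, the main transcription factor of the pathway, and Socs3, its feedback inhibitor, were named after their values were seen: they were at 0.02 ± 0.048 (adjusted p = 0.76) and 0.13 ± 0.049 (adjusted p = 0.0747). Socs3 passed the threshold, as higher, in 4 of the 21 alternatives. On the spike-in scale 3 of the 27 genes fell and 2 rose. Among the risen genes was Lifr, the receptor of leukaemia inhibitory factor (0.39 ± 0.11), which kept its call in 7 of the 21 alternatives and stood at 0.00 after normexp background correction. The count of risen genes was 1 without scrambled replicate 1 or 3 or Sirt6 replicate 1, 3 or 4, and 2 in the other omissions of 1 array.

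Around Cp and Steap4, 9 of 21 genes of iron and copper handling fell and 3 rose, with a median of -0.13. Of this list 57.1% were called, beside 30.4% of all genes. The iron transporter Slc11a2 (-0.93 ± 0.050, adjusted p = 2.98e-05), the haem oxygenase Hmox1 (-0.80 ± 0.077, adjusted p = 0.00027), the transferrin receptor Tfrc (-0.57 ± 0.038, adjusted p = 6.11e-05) and the metalloreductase Steap2 (-0.52 ± 0.049, adjusted p = 0.00025), a relative of Steap4, all fell. The risen genes were the metal transporter Slc39a8 (0.50 ± 0.053), the ferroxidase Heph (0.39 ± 0.12), a relative of ceruloplasmin, and the copper transporter Atp7a (0.22 ± 0.053). Heph kept its call in 11 of the 21 alternatives and stood at 0.10 after normexp background correction.

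Around Timp1, 11 of 16 TIMPs and metalloproteinases fell and 1 rose, with a median of -0.24. Called were 75%, beside 30.4% of all genes. The membrane-type protease Mmp14 fell from between 4.52 and 4.64 to between 3.89 and 4.07 (-0.59 ± 0.052, adjusted p = 0.000184). Mmp3 (-0.79 ± 0.14, adjusted p = 0.00384), Adamts4 (-0.56 ± 0.045, adjusted p = 0.000115) and Adamts1 (-0.42 ± 0.036, adjusted p = 0.000171) fell as well. The risen gene was Timp3 (0.34 ± 0.051), while Timp2 and Timp4 fell (both by 0.38 on the log2 scale). Mmp3 was dim, at -0.18 after normexp background correction, and on the spike-in scale the list had 4 genes fallen.

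Around Cd44, 6 of 13 genes of hyaluronan turnover and of the proteins that bind its tail fell and 2 rose. The median of these genes was -0.17, and 61.5% were called, beside 30.4% of all genes. Hyal2 (-0.76 ± 0.060, adjusted p = 0.000113) and Hyal1 (-0.64 ± 0.10, adjusted p = 0.00302), which cut hyaluronan, fell, as did Cemip (-0.63 ± 0.061, adjusted p = 0.00028), which is needed for its breakdown, and Tnfaip6 (-0.70 ± 0.11, adjusted p = 0.00221), which links it to other proteins. The hyaluronan synthase Has2 (0.47 ± 0.11) and moesin (Msn, 0.31 ± 0.059), which ties the Cd44 tail to actin, rose. After normexp background correction Tnfaip6 and Hyal1, both dim, were at -0.28 and -0.16, and Has2 and Msn at 0.30 and 0.20.

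Around Hspb1, none of the 12 other small heat shock proteins and HSF1 targets tested rose, while 3 fell and 9 were not called (median -0.07). The share called was 25%, beside 30.4% of all genes. Hspb3, Hspb7, Hspb11 and Hspa1b were listed too but could not be tested. The fallen genes were the co-chaperone Bag3 (-0.38 ± 0.033, adjusted p = 0.000172), its partner Hspb8 (-0.32 ± 0.057, adjusted p = 0.00436) and the inducible chaperone Hsp90aa1 (-0.32 ± 0.086, adjusted p = 0.0268). By limma the count of risen genes in this list was 0 at an unadjusted p under 0.05 as well. The call of Hsp90aa1 was lost without scrambled replicate 1, 2 or 3 or Sirt6 replicate 4 (from -0.36 to -0.26 over all omissions). Its probes averaged gave -0.18, and on the spike-in scale 1 gene of the list fell.

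Around S100a10, 4 of 11 genes of the S100 and annexin A2 list rose and 1 fell, so that 45.5% were called, beside 30.4% of all genes. S100a11 (1.1 ± 0.058, adjusted p = 2.92e-05), S100a6 (0.85 ± 0.17, adjusted p = 0.00711) and the giant scaffold protein Ahnak (0.77 ± 0.065, adjusted p = 0.000156), which binds the S100a10 complex, rose. So did annexin A2 itself (Anxa2, 0.39 ± 0.059, adjusted p = 0.00212), which was named as the partner of S100a10 after its value was seen. S100b, the S100 protein most used as an astrocyte marker, fell from between 6.14 and 6.27 to between 4.66 and 5.01 (-1.42 ± 0.078, adjusted p = 3.06e-05).

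Around Gbp2, 3 of 12 guanylate-binding proteins and interferon gamma targets fell, 1 rose and 8 were not called, with a median of -0.05. The share called was 33.3%, beside 30.4% of all genes. The GTPase Irgm (-0.68 ± 0.10, adjusted p = 0.00209), the interferon transcription factor Stat2 (-0.56 ± 0.066, adjusted p = 0.000698) and the peptide transporter Tap1 (-0.38 ± 0.097, adjusted p = 0.0217) fell. The risen gene was the receptor chain Ifngr2 (0.12 ± 0.037), whose call held in 7 of the 21 alternatives and in none of the 8 omissions of 1 array. None of Gbp1, Gbp4 and Gbp5 was called. The call of Tap1 was lost without scrambled replicate 4 or Sirt6 replicate 1 or 3, its log2 fold change running from -0.44 to -0.31 over the omissions.

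Markers of cell types differed in direction from list to list. The median log2 fold change was 0.23 for fibroblast and for endothelial markers, 0.02 for neuron markers and -0.06 for choroid plexus and ependymal markers. For microglia and macrophage markers it was -0.4, below the -0.28 of astrocyte markers, but that list depended on single samples, as given below. Called were 81.2% of astrocyte, 75% of fibroblast, 50% of neuron, 44.4% of endothelial, 33.3% of choroid plexus and 31.2% of microglia markers, beside 30.4% of all genes. Of 16 astrocyte markers 12 fell and 1 rose, with a median of -0.28. Their summed level was 586 to 639 in the scrambled samples against 448 to 490 with the hairpin, in units of each array's 75th percentile. The brightest probes weigh most in such sums, here and below, so a sum does not stand for every gene of its list. Gja1, an astrocyte connexin (-0.63 ± 0.062, adjusted p = 0.000289), was among the fallen together with S100b and Gfap, and Gjb6, the other connexin of the list, rose (1.15 ± 0.11, adjusted p = 0.000245). Gjb6 was dim and stood at 0.49 after normexp background correction. The part of this shift in the lower levels of Serpina3n, Timp1, Lcn2, Cp and Cd44 was not tested. On the spike-in scale 7 of the 16 fell.

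Of 16 microglia and macrophage markers 4 fell and 1 rose, and their summed level was 57.1 to 74.9 against 42.8 to 72.4. This list depended on single samples: 13 fell without Sirt6 replicate 2, whose markers averaged 0.34 above their mean over all arrays while those of the other Sirt6 samples averaged 0.31 to 0.48 below, and 1 fell without Sirt6 replicate 3. It had 8 fallen after normexp background correction and with array weights, and 2 on the spike-in scale. Of 12 fibroblast and meningeal markers 7 rose and 2 fell, with summed levels of 48.0 to 51.3 against 48.6 to 51.6. The 2 fallen genes had the largest changes of the list: Fmod (log2 fold change -1.97) and Mgp (-1.72). Both kept their call in all 21 alternatives. The largest rises were those of Vtn (0.83) and Igfbp6 (0.56), which stood at 0.47 and 0.24 after normexp background correction. Of 9 endothelial and mural markers 4 rose, and Tie1, Rgs5 and Kcnj8 stayed at background on all 8 arrays. The risen genes were Abcc9 (log2 fold change 1.18), Acta2 (0.71), Kdr (0.41) and Cspg4 (0.23). After normexp background correction the first 3 stood at 0.13, 0.31 and 0.25. Cspg4 was not called with median centring or on the spike-in scale. One of 6 choroid plexus and ependymal markers rose and 1 fell, and of 14 neuron markers 4 rose and 3 fell, their summed level being 185 to 187 against 172 to 193. On the spike-in scale 2 neuron markers rose and 1 fell. Their part in the values of the 10 genes was not tested.

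**Figure D4:**
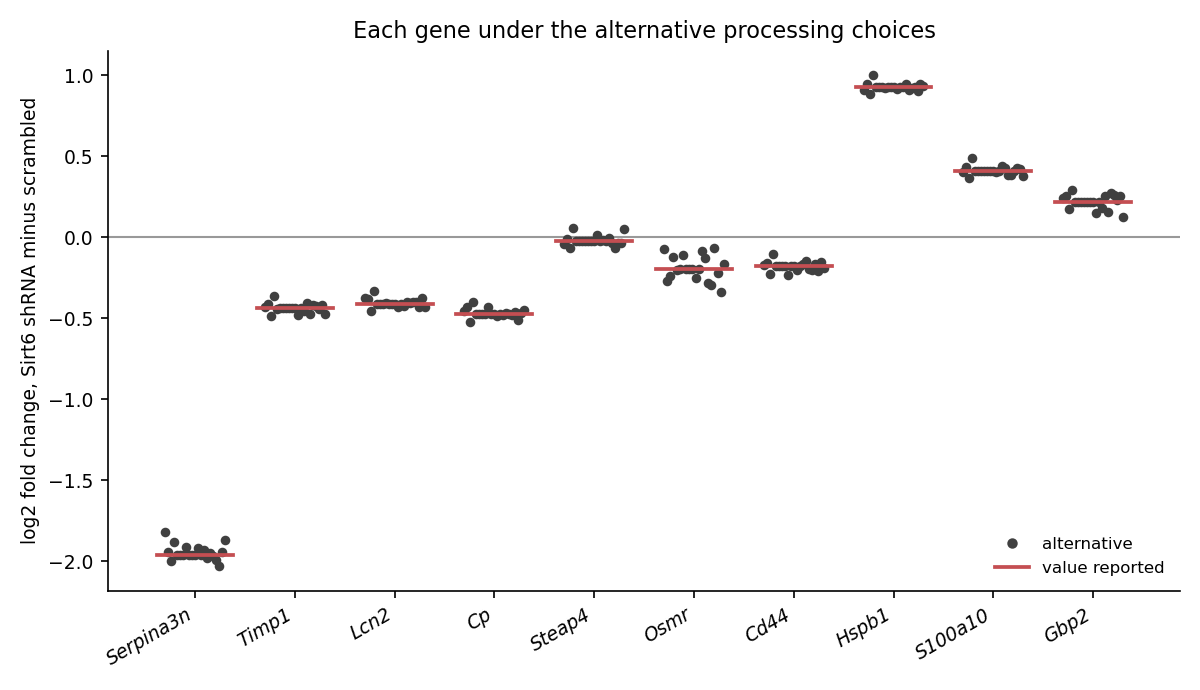
Log2 fold change of each of the 10 genes under 21 alternative ways to process the arrays, 1 point each, with the value reported as a red line (Osmr has 20, since it drops out under the strictest filter). Serpina3n stays between -2.03 and -1.82 and Hspb1 between 0.88 and 1.00, while Cd44 runs from -0.23 to -0.10 and Gbp2 from 0.12 to 0.29.

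Across those alternatives the log2 fold change of Timp1 ranged from -0.48 to -0.36, Lcn2 from -0.45 to -0.33, Cp from -0.52 to -0.40 and S100a10 from 0.36 to 0.49.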

How the data were processed

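Total RNA of 8 samples was labelled with Cy3 and read on 1-colour Agilent rat arrays. Spot intensity, background flags and gene names come from the deposited scanner files, for which the submitters' processing notes name Agilent Feature Extraction, version 11.5.1.1; other flags that the authors' software set mark spots well above background. The deposited series table holds the authors' log2 values; its columns equal the values used here within an SD of 0.0029, with medians from -3.71 to -3.60. It was used as an alternative only.

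Outlier spots were left out, log2 signals averaged by probe, and each array's 75th percentile subtracted. Of 45598 non-control probes, the 28620 that were well above background on at least 4 arrays were kept, and the probe with the highest mean stands for its gene. Probes were named through RefSeq GRCr8 by accession (23740), current symbol (5159) or older symbol (361), and 16338 kept the file's name. Probe coordinates are those of the array files (rn4). Groups were compared over all 22590 genes with limma 3.58.1 (R 4.3.3, lmFit and eBayes, Benjamini-Hochberg adjustment at 0.05), checked on simulated data. Summed marker levels add linear levels. From each list the text names at most 4 called genes, by size of change (2 by p-value if under 2 passed); others are stated as chosen after their values were seen.

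The 10 genes and all gene lists were chosen with earlier results of these data known. Depth does not apply to arrays; 4 samples a group limit the precision. Alternatives were other background corrections, scalings, filters, probe rules and variance models, a replicate block and leaving out each array.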

Additional observations from a re-analysis of the deposited data

How the results depend on the processing

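Of the 10 genes 4 or 5 were called lower and 2 or 3 higher under the 21 alternatives, counts from which nothing is read. Over all genes 30.4% were called in the setting reported, 14.8% lower and 15.6% higher. With array weights 7638 genes were called rather than 6871. The median log2 fold change of the 10 ran from -0.25 to -0.11. Scaling on the E1A spike-ins moved the most: 3299 genes were called rather than 6871, and 6 lower and 2 higher among the other reactive astrocyte genes, with 3 lower and 2 higher in oncostatin M and interleukin-6 signalling; the cause was not tested. Among the other reactive astrocyte genes the count called higher was 2 with median centring and 2 without the filter. In oncostatin M and interleukin-6 signalling it was 1 with median centring, 1 without the filter and 1 with the mean of a gene's probes, and 1 to 2 when 1 array was left out; all genes called then ran from 5313 to 6590.

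Same-numbered samples deviated from their group means with correlations of 0.064, 0.16, 0.133 and 0.033, and not every sample correlated best with its own number, so the replicate numbers were not taken as pairs. With the replicate block 6425 genes were called, and Gbp2 was called higher at the same log2 fold change of 0.22, while Cxcl10, Amigo2 and Ifngr2 were not called. Of the 111 called genes of all lists, 59 kept their call under every alternative they could be tested in and 48 lost it on the spike-in scale. Of their 2330 values over the alternatives 2083 kept the call, and none was called in the opposite direction. Signal over background limited Osmr. No gap between 1 array and its group passed the outlier limit among 32 checks of the 10 genes and the marker lists.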
